A study of Mus musculus with 8 samples.

Results

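The 40 genes described here encode enzymes and regulators of the antioxidant and xenobiotic responses of mouse cells. They were taken by name from a list drawn up with earlier results of these data known, and all 40 were found among the 32285 genes of the deposited RNA matrix. The data come from alveolarspheres, cultures of lung alveolar type II cells (ATII) of young and old mice grown without serum or feeder cells, in which ATII cells can turn into alveolar type I cells. An adeno-associated virus (AAV9) was added on day 9, loaded with either Cre recombinase alone (genotype Cre, control) or Sox9 with Cre (genotype Sox9Cre, Sox9 overexpression), followed by 4 days in a medium that the labels call ATII differentiation medium. Live tdTomato+ cells were sorted, and the RNA and the open chromatin (ATAC) of the same nuclei were read. All cultures therefore received Cre, and no uninfected culture or lung tissue was among the groups. The labels list 8 samples in 4 groups of 2 (Sox9Cre and Cre, each as ATAC and as expression). The deposited matrices pool all nuclei, and 4 barcode prefixes (libraries A, B, C and D here) are not tied to any sample by the labels. The whole matrix was therefore treated as 1 sample: Sox9Cre was not compared with Cre, no test between groups was possible, and the 95% intervals given cover counting error only.

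After filtering, 7199 of 7224 nuclei remained, with 1266, 766, 3236 and 1931 nuclei from A to D, and 88350552 RNA counts (UMIs, unique molecular identifiers) in all and library medians of 9802 to 11733 UMIs per nucleus. Library medians of ATAC counts ran from 3776 in B to 13991 in D, and 20 barcode sequences occurred in more than 1 library. The labels call the cells ATII, but by scores of marker lists without any of the 40 genes 1878 nuclei (26.1%) were type II-like, 1344 (18.7%) type I-like, 1381 (19.2%) transitional-like (keratin-high, between type II and type I) and 116 (1.61%) airway secretory-like. A further 2480 nuclei (34.4%) had no leading score, and 1854 nuclei (25.8%) lay within 0.25 of the score margin, so these classes are ranges rather than separate types. The median nucleus of the type II-like class had 1220 UMIs per 10000 from the type II list, 41.7 from the type I list and 32.8 from the transitional list. In the transitional-like class these medians were 47.2, 100.3 and 282, and in the type I-like class 98.4, 236 and 81.9. Airway secretory-like nuclei occurred in C (56) and D (60). None was found among the 1266 nuclei of A or the 766 of B, which allows shares of up to 0.237% and 0.392%. No doublet caller was run.

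These genes serve 2 linked defence systems. The transcription factor NRF2 (gene Nfe2l2) is held back and sent for degradation by KEAP1. When oxidants or electrophiles modify KEAP1, NRF2 enters the nucleus, pairs with small MAF proteins and binds antioxidant response elements near genes for glutathione synthesis, thioredoxin recycling, NADPH supply and conjugating enzymes. The aryl hydrocarbon receptor binds planar aromatic compounds, pairs with ARNT and acts at xenobiotic response elements near Cyp1a1, Cyp1b1, Ahrr and Tiparp. In the lung, airway secretory (club) cells are known for metabolising inhaled compounds, and type II cells for a strong antioxidant supply.

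The Gsta2 and Nqo1 sequences below are shown because they lie inside promoter peaks whose accessibility is given further on. That of Gsta1 is shown for comparison with its paralogue Gsta2, and the peak counted for Gsta1 does not hold it. They are the 250 bases before the start of Gsta2, Gsta1 and Nqo1, from RefSeq on GRCm38.p6, written 5′ to 3′ along the gene. Gsta2 lies at chr9:78347146-78347395 on the minus strand, Gsta1 at chr9:78230419-78230668 on the plus strand and Nqo1 at chr8:107403206-107403455 on the minus strand. Capitals mark the xenobiotic response element core GCGTG.

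Gsta2: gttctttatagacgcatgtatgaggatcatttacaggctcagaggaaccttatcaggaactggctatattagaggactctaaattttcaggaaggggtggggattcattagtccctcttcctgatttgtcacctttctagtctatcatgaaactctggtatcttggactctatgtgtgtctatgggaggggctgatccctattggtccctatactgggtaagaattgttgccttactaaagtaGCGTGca

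Gsta1: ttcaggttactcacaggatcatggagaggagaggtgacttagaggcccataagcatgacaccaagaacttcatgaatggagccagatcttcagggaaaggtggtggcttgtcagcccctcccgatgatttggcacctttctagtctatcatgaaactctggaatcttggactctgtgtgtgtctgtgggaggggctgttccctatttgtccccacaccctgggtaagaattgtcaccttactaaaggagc

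Nqo1: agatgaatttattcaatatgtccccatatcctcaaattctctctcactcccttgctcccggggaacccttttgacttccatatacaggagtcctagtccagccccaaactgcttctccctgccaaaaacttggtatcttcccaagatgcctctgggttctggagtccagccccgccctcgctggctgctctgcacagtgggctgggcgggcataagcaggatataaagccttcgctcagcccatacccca

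Aligned end to end, the Gsta2 and Gsta1 stretches were identical at 190 of 265 columns (71.7%). In Gsta1 a GCGTG begins 2 bases before the start and runs into the transcript, so it is not shown. The Nqo1 stretch held none of the 3 motifs searched.

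Of the 40 genes, 35 had a promoter in the RefSeq table; Gsta4, Hmox1, Gclc, Gsr and Aldh3a1 did not. Each was searched on both strands from 250 bases before to 50 bases after the start. The antioxidant response element core TGACNNNGC was present for 10 of the 35 genes (28.6%), against 14% of all genes with promoters in the table. The xenobiotic core GCGTG was present for 22 (62.9%), against 35.2% of all genes. The related AP-1 element TGACTCA was present for 6 (17.1%), against 5.95%. All genes of the table were not matched to the 35 genes for expression or base composition. A match describes letters and is not evidence of binding. The windows below show antioxidant cores upstream of the start, with the core in capitals as it reads along the gene. They span the roles listed above: conjugation (Gsta3, Mgst1), glutathione synthesis (Gclm), thioredoxin and peroxide handling (Txnrd1, Prdx1), NADPH supply (G6pdx) and glucuronic acid supply (Ugdh).

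Gsta3, chr1:21240444-21240492: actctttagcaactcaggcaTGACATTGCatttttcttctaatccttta

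Mgst1, chr6:138140451-138140499: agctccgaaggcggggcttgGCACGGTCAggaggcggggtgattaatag

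Gclm, chr3:122245403-122245451: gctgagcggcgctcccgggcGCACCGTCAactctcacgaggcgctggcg

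Txnrd1, chr10:82859094-82859142: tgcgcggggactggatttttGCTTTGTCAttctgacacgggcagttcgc

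Prdx1, chr4:116685446-116685494: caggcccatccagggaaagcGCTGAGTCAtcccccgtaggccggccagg

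G6pdx, chrX:74428909-74428957: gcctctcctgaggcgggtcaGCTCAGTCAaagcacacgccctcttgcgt

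Ugdh, chr5:65435946-65435994: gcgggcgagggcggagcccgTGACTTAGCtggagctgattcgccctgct

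G6pdx and Ugdh are on the minus strand and the other 5 genes on the plus strand. In Prdx1 the core overlaps an AP-1 element. Ugdh holds a second antioxidant core nearer its start, which overlaps a GCGTG.

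Levels below are summed UMIs of a gene per 10000 UMIs of all genes in the same nuclei, and a fold is the ratio of 2 such levels. Because UMI counts were not scaled to gene length, levels are compared within a gene and not between genes. A gene was counted as higher or lower in a class when its level was at least 2-fold above or below that of all other nuclei. The same count was made over all 16505 genes with at least 30 UMIs (16504 where the gene that chose the nuclei was left out), and its share is given as the background. All 40 genes passed that filter. A call as higher also needed more than 3 UMIs in the group. The background genes were not matched to the 40 genes for abundance, which matters most for small groups of nuclei.

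In airway secretory-like nuclei 13 of the 40 genes were at least 2-fold higher, against a background of 9.45%, and 3 were lower, against 9.14%. The median log2 fold of the 40 genes was 0.56, against -0.02 over all genes. Type I-like nuclei had 15 lower (background 10.9%) and 0 higher (3.12%), with a median of -0.84. Type II-like nuclei had 12 lower (background 15.2%) and 1 higher (4.28%). In transitional-like nuclei 6 were higher (background 5.93%) and 2 lower (8.92%), with a median of 0.38.

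**Figure D1:**
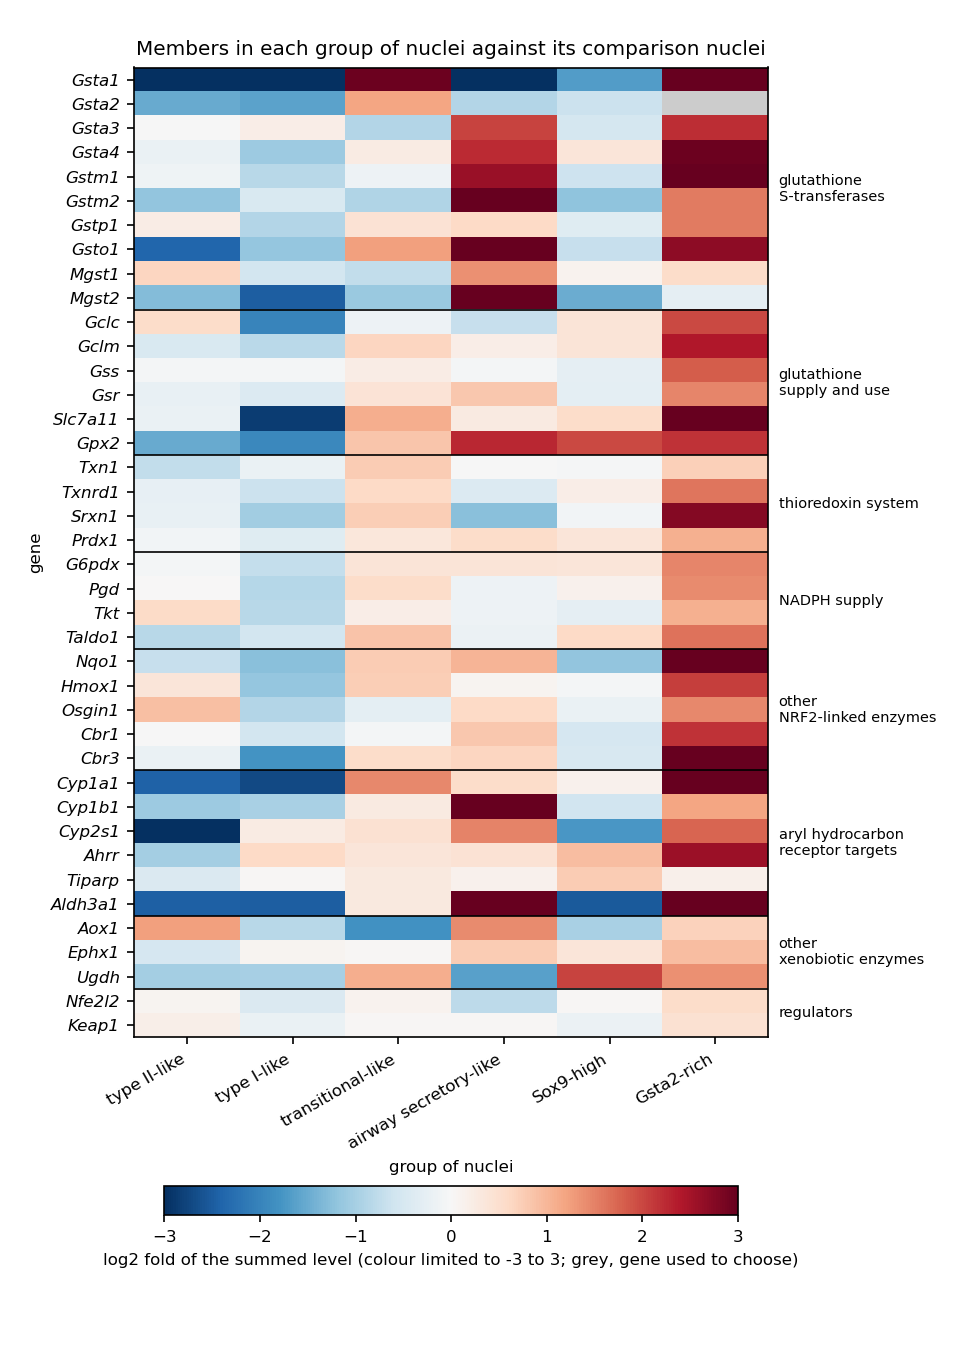
Log2 fold of each of the 40 genes (rows, grouped by role) in 6 groups of nuclei (columns) against their comparison nuclei: all other nuclei for the 4 classes, nuclei of libraries C and D without a Sox9 UMI for Sox9-high, and nuclei without a Gsta2 UMI for Gsta2-rich. Red cells are higher and blue lower (colour limited to 3 in either direction, grey for the gene that chose the nuclei), groups with fewer than 3 UMIs were set to 3, and the Gsta2-rich column is red for nearly all genes while the type I-like column is mostly blue.

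Glutathione S-transferases, which join glutathione to electrophiles, differed between the classes: 7 of the 10 were higher in airway secretory-like nuclei. In type II-like nuclei 5 were lower (Gsta1, Gsta2, Gstm2, Gsto1 and Mgst2) and in type I-like nuclei 5 (Gsta1, Gsta2, Gsta4, Gsto1 and Mgst2). Gsto1, an omega-class enzyme that also reduces arsenic compounds, had 12.6 UMIs per 10000 in airway secretory-like nuclei of C and 15.7 in D. In transitional-like nuclei Gsto1 was between 3.21 and 4.10 in the 4 libraries, in type I-like nuclei between 0.911 and 1.15, and in type II-like nuclei between 0.467 and 0.642. The Gsto1 ranges of the 4 classes did not overlap, and the order airway, transitional, type I, type II was the same in every library that held the class.

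Gstm2, a mu-class transferase, was at 4.13 in airway secretory-like nuclei of C and 2.98 in D, a 25.1-fold difference from all other nuclei (95% interval 22.7 to 27.7). Mgst2, a membrane-bound transferase that can also make leukotriene C, was at 0.776 and 0.945 there, 40.6-fold above the rest. In type II-like, type I-like and transitional-like nuclei Mgst2 was at or under 0.0301 in every library, so its folds among these 3 classes rest on few counts. Gstm2 stayed between 0.0772 and 0.2501 in the same classes and libraries, with no overlap with the airway values. Airway secretory-like nuclei also had the highest mitochondrial share (median 9.09%, against 5.21% to 5.96% in the other 3 classes), whose part in these values was not tested.

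Airway secretory-like nuclei also had higher Gstm1 (7.75 UMIs per 10000, 5.99-fold), Gsta4 (9.73, 4.68-fold), Gsta3 (4.65, 4.06-fold) and Mgst1 (13.6, 2.58-fold). Gsta4 clears lipid peroxidation products such as hydroxynonenal. Gstp1, the pi-class enzyme, was 1.67 there, 1.24 in type II-like, 1.39 in transitional-like and 0.657 in type I-like nuclei.

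Gsta1 and Gsta2, alpha-class transferases, had another pattern. Their sequences are alike, so reads could be split between them and the neighbouring Gm3776, and their counts are uncertain in that sense. Gsta1 was at 0.389, 0.616, 0.476 and 0.328 UMIs per 10000 in transitional-like nuclei of A, B, C and D. In type II-like and type I-like nuclei Gsta1 stayed at or under 0.0428 in all 4 libraries, so the transitional-like values did not overlap with either. Summed over libraries Gsta1 was 7.69-fold higher in transitional-like nuclei than in the rest (95% interval 6.81 to 8.69).

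Gsta2 was at 0.112, 0.122, 0.143 and 0.114 in transitional-like nuclei of the same libraries, 2.28-fold above the rest. In type II-like nuclei Gsta2 ran from 0.0157 to 0.0571, and in type I-like nuclei from 0.0203 to 0.0328. Both genes came from few nuclei: 211 nuclei (2.93%) held a Gsta1 UMI and 311 (4.32%) a Gsta2 UMI, and the 10 nuclei with most Gsta1 held 42.7% of its 1216 UMIs. For Gsta2 the corresponding share was 22.3% of 627 UMIs.

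**Figure D2:**
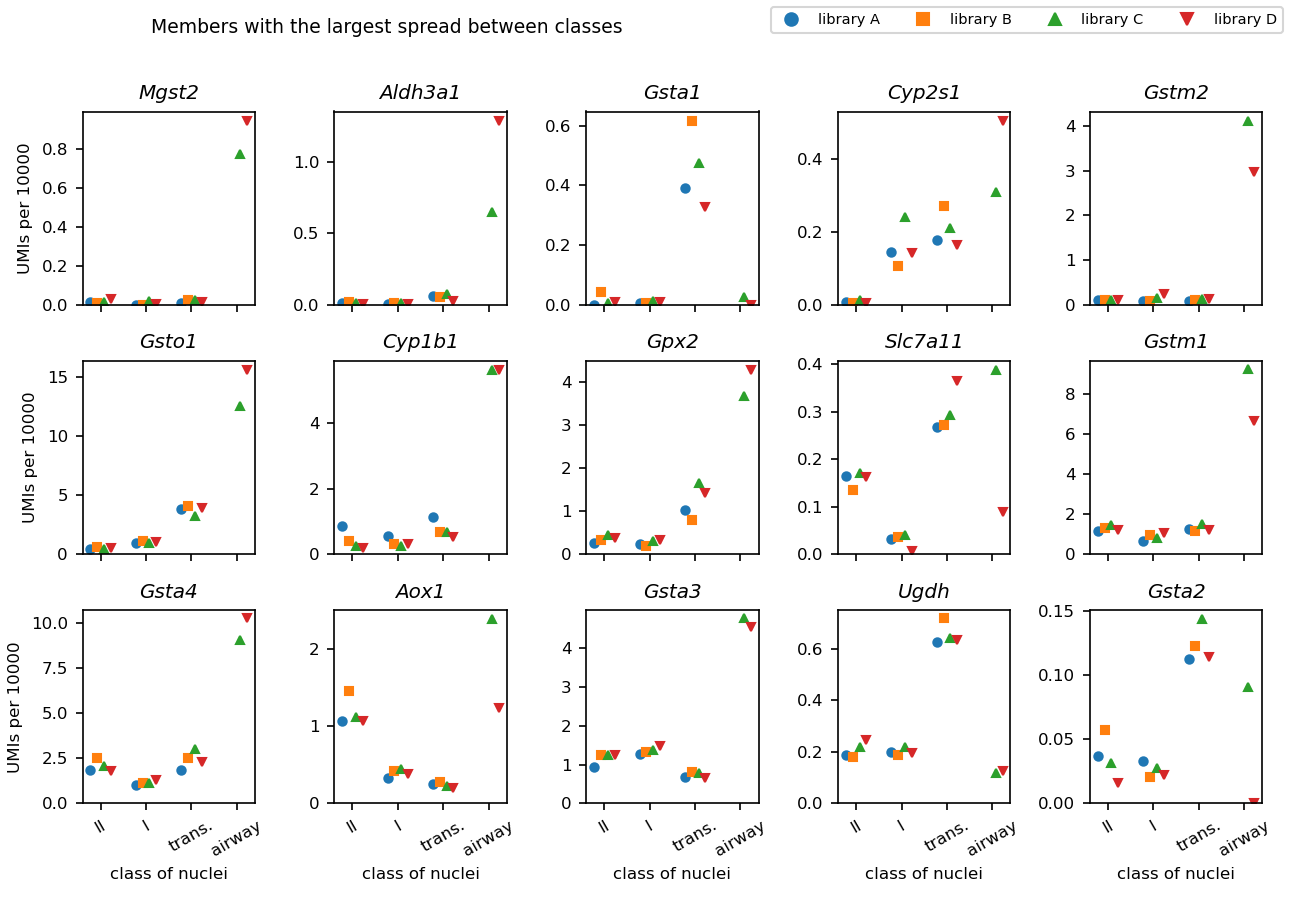
Level (UMIs per 10000 UMIs) of the 15 genes with the largest ratio between the highest and lowest class, by class (II, type II-like; I, type I-like; trans., transitional-like; airway, airway secretory-like), with 1 symbol per library and each panel on its own scale from 0. Airway values exist for libraries C and D only; Gsta1 and Ugdh peak in transitional-like nuclei, and Mgst2, Aldh3a1 and Gstm2 in airway secretory-like nuclei.

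For glutathione supply the low value was that of type I-like nuclei, where 3 of 6 genes were lower. Gclc, the catalytic subunit of the enzyme that limits glutathione synthesis, was at 1.99, 1.75, 1.68 and 2.10 in type I-like nuclei of A to D, against 8.14, 8.79, 8.33 and 8.00 in type II-like nuclei and 5.63 to 6.37 in transitional-like nuclei. Type I-like Gclc was thus 0.253-fold of all other nuclei, with no overlap with the other classes in any library. Gclm, the modifier subunit, differed less, at 0.501 in type I-like, 0.637 in type II-like and 1.13 in transitional-like nuclei.

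Slc7a11, the cystine importer that feeds glutathione synthesis, was at 0.309 in transitional-like, 0.164 in type II-like and 0.0297 in type I-like nuclei. Transitional-like Slc7a11 was 0.267, 0.271, 0.293 and 0.364 in A to D, above all type II-like values (0.136 to 0.171). Gpx2, a glutathione peroxidase known from gut epithelium, was at 4.03 in airway secretory-like, 1.38 in transitional-like, 0.392 in type II-like and 0.271 in type I-like nuclei. Gss (glutathione synthetase) was nearly level, at 0.449 to 0.523 in the 4 classes, and Gsr (glutathione reductase) ran from 0.6004 in type I-like to 1.32 in airway secretory-like nuclei.

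Few of the thioredoxin and NADPH genes passed 2-fold in any class. Of Txn1 (thioredoxin), Txnrd1 (its reductase), Srxn1 (sulfiredoxin, which restores overoxidised peroxiredoxins) and Prdx1 (a peroxiredoxin), 0 of 4 were past 2-fold in transitional-like nuclei, yet their median log2 fold there was 0.67. Txn1 was at 7.06 in transitional-like nuclei against 3.23 in type II-like and 4.26 in type I-like nuclei. Srxn1 was the gene of the 4 with calls, lower at 0.253 in type I-like and 0.200 in airway secretory-like nuclei, against 0.426 in type II-like and 0.690 in transitional-like nuclei.

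The 4 NADPH genes of the pentose phosphate pathway (G6pdx, Pgd, Tkt and Taldo1) had 0 calls in any class. Their median log2 fold was -0.76 in type I-like and 0.47 in transitional-like nuclei. Taldo1 (transaldolase) was at 5.90 in transitional-like, 2.73 in type I-like and 2.46 in type II-like nuclei, while Tkt (transketolase) was at 2.41 in type II-like and 1.13 in type I-like nuclei.

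Among the other NRF2-linked enzymes, 3 of 5 were lower in type I-like nuclei. Cbr3, a carbonyl reductase, was at 0.249, 0.260, 0.192 and 0.283 in type I-like nuclei of A to D, against 0.599 to 0.781 in type II-like and 0.830 to 1.01 in transitional-like nuclei. Nqo1, a quinone reductase often used as a readout of NRF2, was at 0.0459 in type I-like, 0.0690 in type II-like, 0.146 in transitional-like and 0.195 in airway secretory-like nuclei. Hmox1, which breaks down heme, was at 0.224 in type I-like nuclei and 0.478 to 0.658 in the other 3 classes. Osgin1 and Cbr1 passed 2-fold in no class.

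Of the 6 genes listed as targets of the aryl hydrocarbon receptor, 3 were higher in airway secretory-like nuclei and 5 were past the threshold as lower in type II-like nuclei. Of these 5, Cyp1a1 and Ahrr rest on 7 and 18 UMIs in the type II-like class, and Cyp1b1 was not past the threshold when airway secretory-like nuclei were left out (log2 fold -0.76). Cyp2s1, a cytochrome P450, was at or under 0.0128 in type II-like nuclei of every library, against 0.107 to 0.242 in type I-like and 0.163 to 0.271 in transitional-like nuclei. Cyp2s1 was therefore 0.0430-fold in type II-like nuclei against the rest. Cyp1b1 was at 5.63 in airway secretory-like nuclei of C and 5.62 in D, 11.5-fold above the rest, and Aldh3a1, an aldehyde dehydrogenase, at 0.647 and 1.29, 40.5-fold above the rest.

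Cyp1b1 also differed between libraries inside a class: type II-like nuclei had 0.860, 0.399, 0.241 and 0.192 from A to D. Cyp1a1, the classic induced P450, had 98 UMIs in 43 nuclei, 60.2% of them in 10 nuclei, and Ahrr, the receptor's repressor, 107 UMIs in 86 nuclei, too few to order the classes. Tiparp, which modifies the receptor by ADP-ribosylation, passed 2-fold in no class and ran from 0.683 to 1.00.

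Aox1, an aldehyde oxidase, was the single gene of the 40 higher in type II-like nuclei. It was at 1.07, 1.451, 1.12 and 1.07 there in A to D, against 0.195 to 0.275 in transitional-like nuclei and 0.334 to 0.443 in type I-like nuclei. Airway secretory-like nuclei had still more Aox1, 2.39 in C and 1.24 in D. Ugdh, which makes UDP-glucuronic acid, ran the other way, with 0.628, 0.721, 0.641 and 0.633 in transitional-like nuclei and 0.182 to 0.245 in type II-like nuclei. Ephx1, the microsomal epoxide hydrolase, was highest in airway secretory-like nuclei (4.28, against 1.96 in type II-like).

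The regulators stayed within 2-fold. Nfe2l2 was at 7.81, 5.82, 7.98 and 4.41 UMIs per 10000 in type II-like, type I-like, transitional-like and airway secretory-like nuclei. Keap1 ran from 0.534 to 0.646 over the same classes.

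The airway secretory-like nuclei formed part of the comparison nuclei of the other classes. In an alternative chosen after seeing the data, they were left out, and the type II-like count of lower genes went from 12 to 9. Mgst2, Gstm2 and Cyp1b1 dropped out, with log2 folds of -0.25, -0.47 and -0.76. For transitional-like nuclei the count of higher genes went from 6 to 8, with Gpx2 at 1.01 and Aldh3a1 at 1.63, and Mgst2 was no longer lower (-0.09). When nuclei were classed by clusters made without the listed genes, the transitional-like count was 3, with Gsta1, Gsta2 and Slc7a11 past 2-fold.

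Some class calls fell under the threshold when 1 library was left out. In type II-like nuclei the log2 fold of Ahrr was -0.26 without C, that of Gstm2 -0.91 without D, that of Cyp1b1 -0.88 without C and -0.83 without D, that of Mgst2 -0.98 without C, and that of Ugdh -0.98 without B. In type I-like nuclei Gsto1 was at -0.94 without D, Srxn1 at -0.97 without C, and Ugdh at -0.98 without B and -0.95 without D. Slc7a11 (0.88 without D), Cyp1a1 (0.78 without C) and Mgst2 (-0.46 without D) dropped under the threshold in transitional-like nuclei. Nqo1 (0.59) and Srxn1 (-0.85) did so in airway secretory-like nuclei without D. None of these changed sign.

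Related genes outside the 40 were followed in 5 further lists, which were chosen with earlier results of these data known. Of 30 tested genes for xenobiotic and carbonyl metabolism, 14 were higher in airway secretory-like nuclei (background 9.45%) and 2 lower (9.14%). Cbr2, a carbonyl reductase of club cells, was at 104.2 UMIs per 10000 there against 0.602 elsewhere, Cyp2f2, a club-cell P450, at 52.9 against 0.569, and Fmo2, a flavin monooxygenase, at 1.75 against 0.00809. Cyp4b1 was at 1.22 against 0.0246. Among the regulators, the receptor gene Ahr was 3.70-fold higher and Bach2, a repressor at antioxidant elements, 0.321-fold in that class. Maff, a small MAF partner of NRF2, was 2.88-fold higher in transitional-like nuclei, and Nfe2l3, an NRF2 relative, 3.51-fold higher in airway secretory-like nuclei.

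In the list of transferases beside the 40, Gstp3 was 3.15-fold higher in type II-like nuclei, Gstt2 was 0.237-fold in airway secretory-like nuclei, and Gstp2 and Gsto2 were 8.602-fold and 2.81-fold higher there. In the peroxide and superoxide list, Glrx (glutaredoxin) was 4.48-fold and Txnrd3 2.72-fold higher in type II-like nuclei, while Gpx3 and Gpx8 were 3.54-fold and 2.44-fold higher in airway secretory-like nuclei. Of the other NRF2 targets, Esd (esterase D) was 2.70-fold and Chac1 (a glutathione-degrading enzyme) 2.18-fold higher in transitional-like nuclei. Entpd5 was 3.08-fold higher and Ptgr1 0.373-fold in airway secretory-like nuclei.

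Over all nuclei, the median log2 ratio of the highest to the lowest library was 0.33 for the 40 genes and 0.34 over all genes. The 40 genes thus varied no more between libraries than other genes. Of the 40, 5 genes (12.5%) differed by at least 2-fold between these libraries, against a background of 16% of all tested genes. They were Mgst2 (0.00734, 0.0112, 0.0407 and 0.0638 from A to D), Gstm2 (0.0947, 0.0984, 0.223 and 0.282), Aldh3a1 (0.0257, 0.0314, 0.0417 and 0.0662), Gpx2 (0.497, 0.486, 1.01 and 1.12) and Ahrr, with 107 UMIs. The first 4 were higher in both C and D than in A and B. C and D were also the libraries with airway secretory-like nuclei, in which these 4 genes were high, and with nearly all Sox9-high nuclei; the part of each in the library difference was not tested. Cbr3 (1.08-fold), Keap1 (1.08-fold) and Txnrd1 (1.09-fold) varied least.

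Sox9-high nuclei, with at least 5 Sox9 UMIs, numbered 197 in C and 114 in D (1 such nucleus of another library was left out) and were set against 3528 nuclei of C and D without a Sox9 UMI. The counts cannot separate Sox9 of the mouse genome from Sox9 of the virus. Exactly 5 UMIs were seen in 62 nuclei and exactly 4 in 101. Of the 40 genes, 2 were at least 2-fold higher, against a background of 7.85%, and 6 lower, against 4.8%, with a median log2 fold of -0.12 against 0.04 over all genes.

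The higher genes were Gpx2 and Ugdh. Gpx2 was at 2.97 in Sox9-high nuclei of C and 2.87 in D, against 0.700 and 0.803 in Sox9-0 nuclei, a 3.96-fold difference (95% interval 3.71 to 4.22). Ugdh was at 1.246 and 1.11, against 0.280 and 0.317, a 4.06-fold difference (3.67 to 4.48). For both genes the lower of the Sox9-high values was more than 2-fold above the higher of the Sox9-0 values. Inside transitional-like nuclei, an alternative chosen after seeing the data, Gpx2 and Ugdh were again higher, with log2 folds of 1.41 and 1.08.

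The lower genes were Gsta1 (0.311-fold), Gstm2 (0.434-fold), Mgst2 (0.356-fold), Nqo1 (0.442-fold), Cyp2s1 (0.298-fold) and Aldh3a1 (0.175-fold, from 4 UMIs). Nqo1 was at 0.0401 in C and 0.0507 in D in Sox9-high nuclei, against 0.111 and 0.0836. Without C its log2 fold was -0.72, and without D that of Mgst2 was -0.61, both under the threshold. No airway secretory-like nucleus was Sox9-high, and the airway list was at 2.42 UMIs per 10000 in Sox9-high against 28.6 in Sox9-0 nuclei. Median depth was 14352 against 10651 UMIs. The type II list was at 292 against 572, the type I list at 54.5 against 117, the transitional list at 191 against 129, and the 8 gut and stomach markers at 0.808 against 0.0400, with Gkn1, Gkn2, Tff1 and Tff3 at 0. The part of these in the folds was not tested. With at least 3 Sox9 UMIs as the threshold, 1 gene was lower and Gsta1 turned to a log2 fold of 1.04.

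Inside transitional-like nuclei, 2 of the 40 genes were higher (background 6.43%) and 12 were lower (background 5.08%) in Sox9-high nuclei. The lower genes were Gsta1, Gsta2, Gstm1, Gstm2, Gstp1, Nqo1, Cbr3, Srxn1, Cyp1b1, Cyp2s1, Aldh3a1 and Aox1. These calls come from 104 Sox9-high nuclei. A call as lower needed no minimum count in the group, and that of Aldh3a1 rests on few UMIs. Mgst2, lower in the full comparison, was at a log2 fold of -0.07 here. Aox1 had a log2 fold of -1.97, Nqo1 of -1.64, Gstm1 of -1.57 and Cbr3 of -1.40. The median log2 fold of the 40 genes there was -0.56, against 0.14 over all genes.

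Nuclei with at least 3 Gsta2 UMIs, called Gsta2-rich, were few: 64 in all (12, 8, 28 and 16 in A to D), or 0.889% of nuclei, with an exact binomial 95% interval of 0.685 to 1.13. The share was alike in the 4 libraries, at 0.948%, 1.04%, 0.865% and 0.829%, with intervals that overlapped. Of the 64, 37 had exactly 3 Gsta2 UMIs and the highest had 43, while 48 nuclei had exactly 2. By class, 29 were transitional-like (2.1% of that class), 26 lay between classes, 5 were type II-like, 3 type I-like and 1 airway secretory-like. Of the 64, 1 was also Sox9-high, against 4.32% of all nuclei (6.09% in C and 5.90% in D), too small a count to compare shares. Sox9 itself was at 0.852 UMIs per 10000 in Gsta2-rich nuclei and 0.754 in nuclei without Gsta2.

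The other genes of the set were high in the same nuclei. Against the 6888 nuclei without a Gsta2 UMI, 31 of the 39 other genes were at least 2-fold higher, against a background of 4.23%, and 0 were lower, against 3.96%. The median log2 fold of the 39 genes was 1.63, against 0.14 over all genes.

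**Figure D3:**
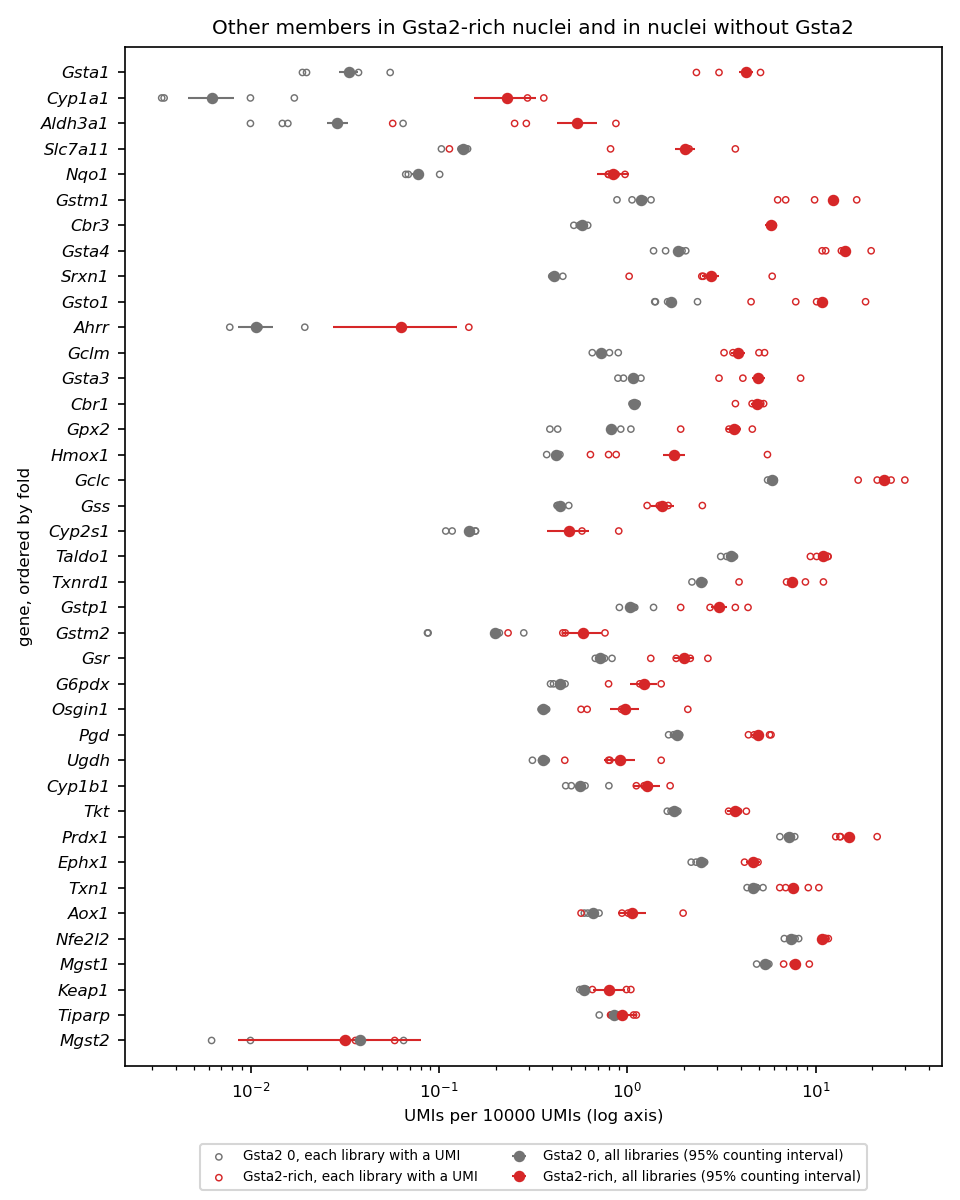
Level (UMIs per 10000 UMIs, log axis) of the 39 other genes in the 64 Gsta2-rich nuclei (red) and in the 6888 nuclei without Gsta2 (grey); filled points with bars are sums over libraries with 95% counting intervals, open points single libraries with at least 1 UMI. The filled red point lies to the right of the filled grey point for each gene but Mgst2, by the most for Gsta1 and by little for Keap1 and Tiparp.

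Of the 9 other transferases, 7 were higher. Gsta1 was at 3.07, 2.33, 5.10 and 4.29 UMIs per 10000 in Gsta2-rich nuclei of A, B, C and D, against 0.0552, 0.0189, 0.0375 and 0.0198 in nuclei without Gsta2, a 129-fold difference (95% interval 111 to 149). Reads shared between these paralogues could add to that value. A Gsta1 UMI was seen in 48.4% of Gsta2-rich nuclei, against 2.00% of those without Gsta2. In Gsta2-rich nuclei 1 nucleus gave 24.4% of the 541 Gsta1 UMIs. Gsta4 was at 11.3, 10.8, 13.7 and 19.7, against 1.38, 1.60, 2.05 and 1.96 (7.66-fold), with no overlap between the groups.

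Gstm1 (10.4-fold), Gsto1 (6.39-fold), Gsta3 (4.62-fold), Gstp1 (2.96-fold) and Gstm2 (2.95-fold) were higher as well. For Gstm1, 1 nucleus gave 21.9% of the 1567 UMIs. The microsomal transferases stood apart: Mgst1 was 1.46-fold and Mgst2 0.831-fold, the latter from 4 UMIs.

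All 6 genes of glutathione supply and use were higher. Gclc was at 16.8, 25.2, 21.2 and 29.8 in Gsta2-rich nuclei of A to D, against 6.03, 5.87, 6.04 and 5.57 without Gsta2, so each library's value was at least 2.79-fold above its own comparison nuclei. Gclm was 5.33-fold higher (3.27 to 5.36 against 0.652 to 0.897), Gss 3.51-fold, Gsr 2.78-fold and Gpx2 4.48-fold. Slc7a11 was 15.1-fold higher in sum but uneven: 0.114, 0.816, 2.13 and 3.75 in A to D, against 0.103 to 0.142. The value of A thus did not stand above its comparison nuclei. Slc7a11 was seen in 48.4% of Gsta2-rich nuclei, and 1 nucleus gave 20.6% of its 257 UMIs there.

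In the thioredoxin system Srxn1 (6.77-fold), Txnrd1 (3.06-fold) and Prdx1 (2.09-fold) were higher, and Txn1 was 1.63-fold. Srxn1 was at 1.02, 5.89, 2.54 and 2.49 in A to D, against 0.398 to 0.455. For Srxn1, 1 nucleus gave 19.4% of the 351 UMIs. All 4 NADPH genes were higher: Taldo1 3.09-fold, G6pdx 2.78-fold, Pgd 2.69-fold and Tkt 2.10-fold. Taldo1 was at 9.39, 11.7, 11.6 and 10.1, against 3.14 to 3.71, with no overlap. Without library D the log2 fold of Prdx1 was 0.94, under the threshold.

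All 5 other NRF2-linked enzymes were higher. Cbr3 was at 5.97, 5.71, 5.79 and 5.77 in Gsta2-rich nuclei, against 0.556, 0.521, 0.570 and 0.617, a 10.1-fold difference that was nearly the same in every library (9.35 to 11.0). Nqo1 was at 0.796, 0.874, 0.793 and 0.974, against 0.101, 0.0688, 0.0779 and 0.0667, a 10.9-fold difference. Cbr1 was 4.502-fold and Osgin1 2.71-fold higher. Hmox1 was at 0.796, 0.874, 0.638 and 5.55 in A to D, so its 4.198-fold sum rests mainly on D, where 12.6-fold was measured against 1.51 to 2.13 in the other libraries, and 1 nucleus gave 27.7% of the UMIs. Without D its log2 fold was 0.77, under the threshold.

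Of the receptor targets, 5 of 6 were higher, on thinner counts. Aldh3a1 (18.8-fold, 69 UMIs), Cyp2s1 (3.38-fold, 62 UMIs) and Cyp1b1 (2.27-fold, 162 UMIs) were seen in 29.7%, 34.4% and 54.7% of Gsta2-rich nuclei. Cyp2s1 had 0 UMIs in those of A and B, and without C the log2 fold of Aldh3a1 went from 4.23 to 2.39. Cyp1a1 (36.5-fold) rests on 29 UMIs, 19 of them in 1 nucleus, with 0 in A and B, and Ahrr on 8 UMIs. Tiparp was 1.103-fold (95% interval 0.913 to 1.32).

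Of the other xenobiotic enzymes Ugdh was 2.57-fold higher, with Ephx1 at 1.89-fold and Aox1 at 1.61-fold. The regulators Nfe2l2 (7.34, 11.4, 11.3 and 11.7 against 8.14, 7.79, 7.34 and 6.83; 1.47-fold) and Keap1 (1.37-fold) stayed under 2-fold. For Nfe2l2 the value of A overlapped with the comparison nuclei, and those of B, C and D were above all 4 of them.

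Nucleus by nucleus, the summed level of the 38 other genes (all but Gsta1 and Gsta2) had a median of 156 UMIs per 10000 in Gsta2-rich nuclei, 81.8 in nuclei with 1 or 2 Gsta2 UMIs and 49.8 in nuclei with 0. Of the 64 nuclei, 62 lay above the median of the nuclei without Gsta2 and 46 (71.9%) above their 95th percentile of 114. With every nucleus thinned to 5000 UMIs, a median of 22 of the 38 genes was seen in Gsta2-rich nuclei, 16 with 1 or 2 Gsta2 UMIs and 12 without. No Gsta2-rich nucleus, 8 with 1 or 2 UMIs and 714 without Gsta2 were too shallow for that. High sums also occurred without Gsta2, up to 431 UMIs per 10000.

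**Figure D4:**
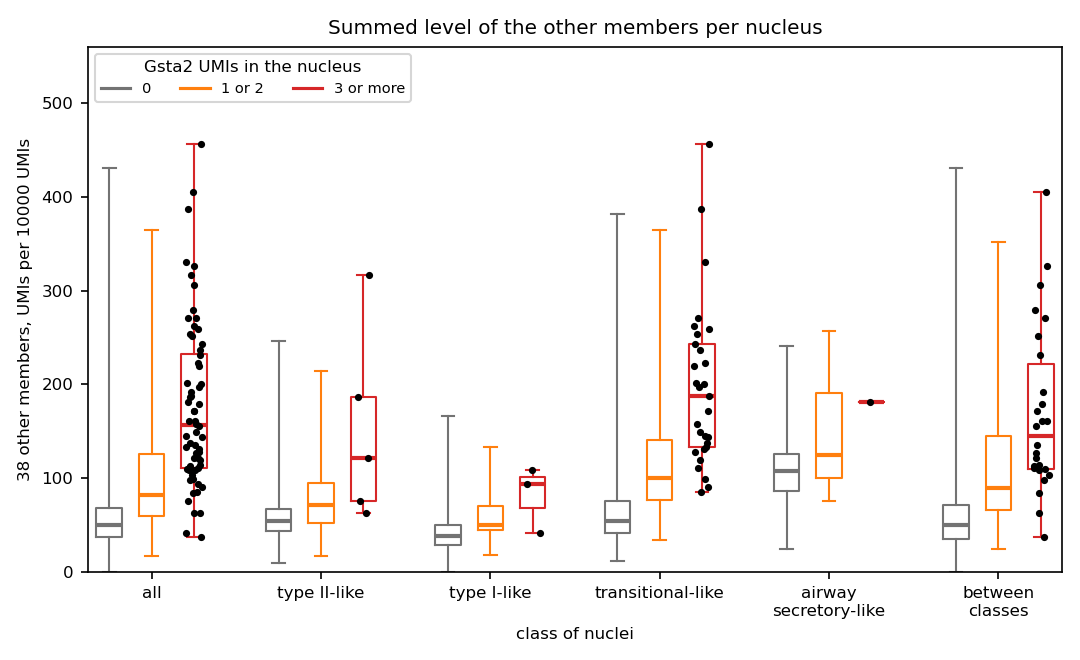
Summed level of 38 other genes per nucleus (UMIs per 10000 UMIs) by class and by the number of Gsta2 UMIs; boxes show quartiles and median, whiskers the lowest and highest nucleus, and black points single Gsta2-rich nuclei. Within the transitional-like class the median was 54.5 with 0, 99.9 with 1 or 2 and 187 with 3 or more Gsta2 UMIs.

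The pattern was also present inside the transitional-like class and among the nuclei between classes. In transitional-like nuclei 33 of 39 genes were higher in the 29 Gsta2-rich nuclei than in the 1283 without Gsta2 (background 3.43%), and 0 were lower (3.02%). Between classes 25 of 39 were higher in 26 nuclei (background 2.89%) and 0 lower (4.55%). Inside the transitional-like class Gsta4 was 10.2-fold, Cbr3 9.13-fold, Nqo1 8.23-fold, Gclc 4.403-fold and Prdx1 2.24-fold higher, and Keap1 was 0.964-fold. The 5 type II-like, 3 type I-like and 1 airway secretory-like Gsta2-rich nuclei were too few for the same reading.

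Depth and other features moved with the choice. Gsta2-rich nuclei had a median of 17771.5 UMIs, against 10912.5 without Gsta2. With both groups held to at least 15000 UMIs, an alternative chosen after seeing the data, 29 of 39 genes were higher (background 3.57%) and 0 lower (3.79%). With nuclei chosen by at least 3 Gsta1 UMIs in place of Gsta2 (72 nuclei, 25 of them shared), also chosen after seeing the data, 30 of the other 38 genes were higher (background 5.47%) and 0 lower (5.49%). Over the planned and added alternatives, the nuclei between classes aside, the count of higher genes stayed between 29 and 33.

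The mitochondrial share was 5.28% against 5.78%. The transitional list was at 221 UMIs per 10000 against 136, but in library B at 113 against 142. The type II list was at 280 against 543 and the type I list at 99.2 against 114. The airway list was at 7.54 against 19.9 in sum, with 12 of 19 markers seen and Bpifb1, Muc5b, Muc5ac, Lypd2, Tff2, Ltf and Agr2 at 0. The direction was the opposite in A (1.65 against 1.39), in B (4.49 against 1.275) and in the median nucleus (2.12 against 1.20), and the airway secretory-like nuclei all came from C and D. All 10 mesenchymal markers were at 0. The basal list was at 0.466 against 0.0410, with Krt5, Krt14, Krt15 and Ngfr at 0, but at 0.918 in C and 0 in A, B and D. The immune list was at 0.347 against 0.0920, with 5 of 10 markers seen, and the neuroendocrine list at 0.402 against 0.0878, with 1 of 6 seen. The part of depth and of the transitional list beyond the readings above was not tested.

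Genes outside all lists were ranked by fold among those seen in 20% or more of the Gsta2-rich nuclei. That filter was set in the group where they are high, so the order is a description only. The first 5 were Gm3776 (178-fold), the alpha-class paralogue named above, Tsku (8.65-fold), Slpi, a secreted protease inhibitor (8.32-fold), Hspa1b, a heat shock protein (7.52-fold), and Upk1b (6.83-fold). Hspa1b was at 1.39 UMIs per 10000 against 0.185, and its part in the result was not tested.

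Of 20 tested genes in the list of other NRF2 targets, efflux and iron, 11 were higher in Gsta2-rich nuclei (background 4.23%) and 0 lower (3.96%). Those named next were chosen after their values were seen: Blvrb, a biliverdin reductase (5.51-fold), Entpd5 (4.395-fold), Esd (3.51-fold), Abcc3, an exporter of conjugates (3.24-fold), Ptgr1 (2.18-fold) and the metallothionein genes Mt1 (3.67-fold) and Mt2 (4.92-fold). Mt1 and Mt2 were not higher in library B (1.11-fold and 0.631-fold). Of the 24 genes for peroxide and superoxide removal, Gpx3 was higher (3.13-fold) and Prdx4 lower (0.489-fold), near the backgrounds of 4.23% and 3.96%. Of the 15 regulators tested, 0 were higher and Bach2 was lower (0.385-fold). With so few genes, these counts do not set either list apart from the background.

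Accessibility was read as ATAC counts in the deposited peaks that overlap a gene or the 2000 bases on either side, per 10000 counts in peaks, and a gene was counted when its log2 fold was at least 0.32 in either direction, a smaller threshold than for RNA. All 40 genes had at least 1 such peak. Gsta2-rich nuclei had 15 of 40 genes higher, against a background of 14.5%, and 0 lower, against 16.7%. The count of 0 did not hold when 1 library was left out: 2 genes were lower without A, 2 without B, 5 without C and 3 without D, and 10 to 15 were higher. With each peak read as 0 or 1 per nucleus 3 were lower. With 64 nuclei many of these folds rest on few counts, and the intervals of most include 1.

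The intervals of 7 genes lay above 1. Over Nqo1 (chr8:107388225-107403205) there were 30 counts in Gsta2-rich nuclei, 0.386 per 10000 against 0.165, a 2.34-fold difference (95% interval 1.57 to 3.36), with 1.97 in C and 3.88 in D. Over Gsta2 itself (chr9:78331018-78347192) there were 34 counts and a 2.13-fold difference (1.47 to 2.99). The others were Cyp1a1 (1.94-fold, 13 counts), Gsr (1.58-fold), Gsta3 (1.53-fold), Taldo1 (1.37-fold) and Ephx1 (1.33-fold). A and B gave too few counts for a value over Nqo1 and Gsta2.

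Most of these counts lay in the peaks over the promoters printed above at Nqo1 (23 of 30), and fewer at Gsta2 (15 of 34). The Gsta2 promoter peak at chr9:78346694-78347529 had 0.193 counts per 10000 in Gsta2-rich nuclei against 0.0558 (3.46-fold, 1.92 to 5.77, from 15 counts), and the next peak upstream, chr9:78348049-78348870, was 2.37-fold (1.18 to 4.29, from 11 counts). The Nqo1 promoter peak at chr8:107402836-107403792 had 0.296 against 0.113 (2.62-fold, 1.65 to 3.95, from 23 counts). The single peak counted for Gsta1, at chr9:78229076-78229977 before its start, had 6 counts and a 2.06-fold difference with an interval of 0.750 to 4.54. Among genes with large RNA folds, accessibility over Gsta4 was 1.01-fold (0.693 to 1.42) and over Gclc 0.935-fold (0.681 to 1.253). Of the 31 genes higher in RNA, 23 had an accessibility fold above 1 and 8 below, with a median of 1.14. Over all 632 genes called higher in RNA in these nuclei, 64.9% lay above 1, with a median of 1.097.

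**Figure D5:**
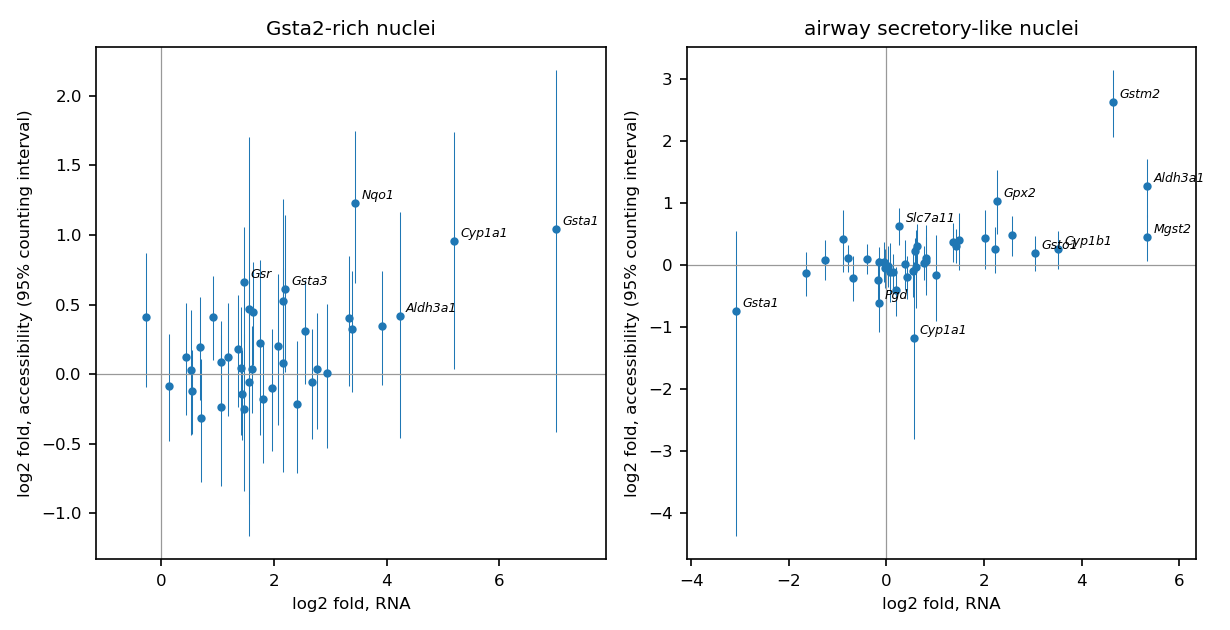
Log2 fold in RNA (horizontal) and in accessibility over the gene (vertical, with 95% counting intervals) for Gsta2-rich nuclei (left, 39 genes without Gsta2) and airway secretory-like nuclei (right, 40 genes), with the genes farthest from 0 named. Nqo1 at left and Gstm2 at right lie high on both axes, and most genes lie near 0 in accessibility.

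In airway secretory-like nuclei 10 genes were more accessible, against a background of 16.2%, and 4 less, against 20.5%. Gstm2 (chr3:107981702-107986420) had a 6.18-fold difference (4.19 to 8.85), 4.41 in C and 6.91 in D, carried by its promoter peak at chr3:107985993-107986971 (6.81-fold). Aldh3a1 was 2.41-fold (1.72 to 3.29), 1.18 in C and 3.04 in D, and Gpx2 2.05-fold (1.41 to 2.89). Of the 13 genes higher in RNA there, 12 had an accessibility fold above 1 (median 1.32), against 72.7% of all 1423 genes called higher there (median 1.21). Mgst2 was 1.37-fold and Gsto1 1.14-fold (0.933 to 1.39).

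Transitional-like nuclei had 6 genes more accessible (background 9.89%) and 3 less (7.27%). Gsta1 was 2.01-fold (1.57 to 2.55), Nqo1 1.41-fold (above 1 in all 4 libraries), Aldh3a1 1.39-fold, Gstp1 1.34-fold, Slc7a11 1.33-fold and Gpx2 1.31-fold. Within Slc7a11 the promoter peak was 0.874-fold and the peak at chr3:50456257-50457200, which lies 5′ of that promoter within the annotated gene, 3.19-fold (2.61 to 3.89). The transferase Mgst1 was 0.734-fold in transitional-like and 1.54-fold in type II-like nuclei (1.47 to 1.71 in the 4 libraries).

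Type II-like nuclei had 3 genes more accessible (background 6.68%) and 3 less (9.73%), the former being Mgst1, Aox1 (1.28-fold) and Gsta3 (1.27-fold). Type I-like nuclei had 0 more (background 3.72%) and 6 less (8.37%): Gsta1, Gsta2, Mgst1, Gpx2, Slc7a11 and Aldh3a1. Gclc, whose RNA was lowest in that class, was 1.09-fold in accessibility (1.01 to 1.17). Of the 15 genes lower in RNA in type I-like nuclei, 13 had an accessibility fold below 1, with a median of 0.871. Over all 1597 genes called lower there, 77.4% lay below 1, with a median of 0.907.

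In Sox9-high nuclei 6 genes were more accessible (background 10.2%) and 3 less (11.6%). Gpx2 was 1.70-fold (1.36 to 2.10), 1.31 in C and 2.19 in D, at its promoter peak chr12:76795030-76795944. Ugdh, the other gene higher in RNA, was 1.02-fold at its promoter peak (0.889 to 1.17). Gsta4 was 1.52-fold (1.34 to 1.72), through peaks at chr9:78204018-78204903 (2.55-fold) and chr9:78190355-78191176 (2.25-fold), while its RNA was 1.29-fold. Of the 6 genes lower in RNA, 3 had an accessibility fold above 1 and 3 below (median 0.962), against 75.7% below 1 over all 684 genes called lower in Sox9-high nuclei (median 0.885).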

How the data were processed

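RNA and ATAC values are whole-number counts per nucleus in 2 pooled matrices that the authors deposited. The submitters' processing notes list Signac 1.10.0, Seurat 4.3.0 and Cell Ranger 6.0.1, with GRCm38 and mm10 as builds. The sources used here do not say how introns or reads shared by paralogues were counted. The 3 deposited tables of multiplexing oligos were not used.

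Nuclei were kept from 500 UMIs and 300 genes upward if mitochondrial UMIs were below 20% (medians of 9802 to 11733 UMIs per library), with no doublet removal. Per nucleus, the mean log level of each marker list was turned into a z score. The highest score named the class if it was at least 0.5 (at least 2 for airway, set after seeing the data, which left 96 nuclei unnamed: 2, 3, 45 and 46 in A to D) and led by 0.5. UMIs were summed per group, groups under 3 UMIs were set to 3, and library folds from 3 or fewer UMIs were left out. Intervals are exact (Poisson, Clopper-Pearson or conditional binomial). Genes were named when at least 0.1 UMIs per 10000 in a class: the 15 members and up to 4 genes per further list with the largest class ratio, and the 5 leading genes outside the lists. The members and lists were chosen with earlier results of these data known. The fold calculation was checked on simulated group sums with known folds. These held no variation between nuclei or libraries, so the check does not cover that variation. Gene positions came from RefSeq (GRCm38.p6). Software was Python 3.11.15, scipy 1.17.1 and scanpy 1.11.5.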

Additional observations from a re-analysis of the deposited data

How the results depend on the processing

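Of 238 counts of genes past the fold under the alternatives, 216 were within 1.5 times the reported count. Of 1200 values of called genes, 1199 kept their direction. Some alternatives could not change a count. All 40 genes already passed the filter of 30 UMIs, so lowering it had no effect, and the Sox9-high comparison holds no nuclei of A or B. These totals therefore overstate the stability of the counts. Higher genes in Gsta2-rich nuclei stayed between 29 and 33 of those tested, apart from the nuclei between classes (25 of 39). Leaving out 1 library at a time gave 2 to 5 genes less accessible in Gsta2-rich nuclei (0 with all libraries; 5 without C, 3 without D, 2 without A or B), 3 to 5 less accessible in Sox9-high nuclei (5 without C), 1 to 3 more accessible (1 without D) and 2 to 5 less accessible (5 without C) in type II-like nuclei, 2 to 5 lower in airway secretory-like nuclei (5 without C) and 1 to 2 lower in transitional-like nuclei (1 without D). The latter count was 1 with per-nucleus means, 1 without the deepest 5% of nuclei, 4 with a score margin of 1 and, added after seeing the data, 1 without airway secretory-like nuclei. Clusters made without the listed genes gave 3 higher genes in transitional-like nuclei. Without mitochondrial and the 20 top genes in the denominator, 2 genes were higher in type II-like nuclei. Library D alone, added later, gave 5 lower in airway secretory-like nuclei. A threshold of at least 3 Sox9 UMIs gave 1 lower gene in Sox9-high nuclei and a log2 fold of 1.04 for Gsta1; the transitional-like class alone, added later, gave 12. For accessibility, windows of 10000 bases gave 1 less accessible gene in Sox9-high and 1 more accessible in type I-like nuclei; at least 1000 ATAC counts per nucleus gave 1 and binary peaks 3 less accessible genes in Gsta2-rich nuclei. Where fewer nuclei do not account for a change by construction, the cause was not tested. Gsta2-rich nuclei inside the type II-like and type I-like classes were under 10 and not run. Depth limits Cyp1a1, Ahrr, Mgst2 and most accessibility folds of Gsta2-rich nuclei. No paired analysis was possible because the barcodes carry no replicate numbers and no result comes from a test.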
